A study of Mus musculus with 9 samples.

Results

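Hb_EC, the cells that the deposited annotation sets apart as hemoglobin-expressing vascular cells, were selected by that annotation alone and numbered 254 of 72543 cells. They were compared with the 20403 cells annotated as endothelial cells (EC) in the same libraries. The cells came from 9 libraries of dissociated mouse brain without the cerebellum, profiled by sequencing the RNA of single cells in droplets. Each captured transcript carries a unique molecular identifier (UMI) and a count is a number of molecules. All mice were C57BL/6J males, perfused with cold saline before dissociation, and each label names 3 mice per library. The paper instead gives 5 mice for each of the young adult and aged groups. The young adult mice were 2 to 3 months old and the aged mice 18 to 20 months old. The exenatide-treated aged mice (also 18 to 20 months old) had received the GLP-1 receptor agonist exenatide at 5 nmol per kg per day by intraperitoneal injection for 4 to 5 weeks, starting at 17 to 18 months. Each group had 3 libraries, numbered 1, 2 and 4. Because mice were pooled, the spread between libraries is not the spread between mice, and a p-value over libraries measures only the former.

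Hemoglobin is made in large amounts by erythroid cells, which join alpha and beta globin chains to heme. Heme synthesis in these cells starts with ALAS2, the erythroid form of 5-aminolevulinate synthase, and ends with ferrochelatase, which inserts the iron. Maturing red cells of mammals lose their nucleus but keep globin mRNA for a time as reticulocytes, and they lie inside the vessels that ECs line. Brain ECs are joined by tight junctions built with claudin-5 and carry the transporters of the blood–brain barrier (BBB).

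The globin genes carried the finding, and they were of the adult type. *Hba-a1* (chr11:32283511-32284465, plus strand, GRCm38) and *Hba-a2* (chr11:32296489-32297298, plus strand) encode the alpha chain. *Hbb-bs* (chr7:103826534-103828096, minus strand) and *Hbb-bt* (chr7:103812524-103813996, minus strand) encode the beta chain. *Alas2* lies on chrX:150547375-150570638 (plus strand) and *Cldn5*, which encodes claudin-5, on chr16:18776847-18778262 (plus strand). These are whole-gene spans from the GENCODE M21 annotation of GRCm38. The 100 bases before the RefSeq start of each gene are shown because the 5 erythroid genes were the most strongly raised of all genes in Hb_EC while *Cldn5* marks the other lineage. They were read from RefSeq (GRCm38.p6) on the strand of the gene, 5′ to 3′, with the CACCC motif, or GGGTG where it lay on the opposite strand, in capitals. The RefSeq starts of the 5 erythroid genes lie inside their GENCODE spans, so their windows overlap these spans, and that of *Cldn5* ends just before its span.
Hba-a1: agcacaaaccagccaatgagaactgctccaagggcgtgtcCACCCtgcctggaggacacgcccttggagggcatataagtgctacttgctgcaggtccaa
Hba-a2: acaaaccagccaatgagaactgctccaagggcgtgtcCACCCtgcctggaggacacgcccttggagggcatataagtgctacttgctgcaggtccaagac
Hbb-bs: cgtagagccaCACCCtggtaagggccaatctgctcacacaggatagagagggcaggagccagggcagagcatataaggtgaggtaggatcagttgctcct
Hbb-bt: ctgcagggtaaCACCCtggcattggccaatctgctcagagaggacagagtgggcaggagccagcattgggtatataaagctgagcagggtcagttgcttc
Alas2: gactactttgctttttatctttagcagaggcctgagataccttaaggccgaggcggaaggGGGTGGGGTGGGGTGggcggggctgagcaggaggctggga
Cldn5: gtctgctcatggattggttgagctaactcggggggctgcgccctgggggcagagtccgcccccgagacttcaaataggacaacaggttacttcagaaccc

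All 5 erythroid genes had CACCC on either strand within these 100 bases, with 3 copies in *Alas2* and 1 in each globin gene, and *Cldn5* had 0. Of 32851 RefSeq promoters, 27.2% held CACCC in the same window. Within 250 bases, each of the 5 erythroid genes had 1 GATAA on either strand and at least 1 CACCC, a combination found in 10.1% of all promoters, whereas *Cldn5* had 2 CACCC and 0 GATAA. Each motif was counted by itself. These matches describe letters in a window and not bound sites. The upstream sequences of *Hba-a1* and *Hba-a2* were identical over all 97 bases compared, shifted by 3 bases. The near 3′ ends that this assay counts are also alike. Of 211 windows of 90 bases in the last 300 bases of the *Hba-a1* transcript, 57.3% occur in *Hba-a2*, and 24.6% of those of *Hbb-bs* occur in *Hbb-bt*, so the division of reads within each pair is uncertain.

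Globin transcripts made up much of what was captured from Hb_EC. The 4 adult globin genes took a median of 28.2% of a cell's UMIs, from 1.16% in the lowest cell to 86.3% in the highest. *Hba-a1*, *Hba-a2* and *Hbb-bs* were found in all 254 cells and *Hbb-bt* in 246. Since the annotation rests on such genes, these levels describe the cells that were chosen and were not tested.

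**Figure D1:**
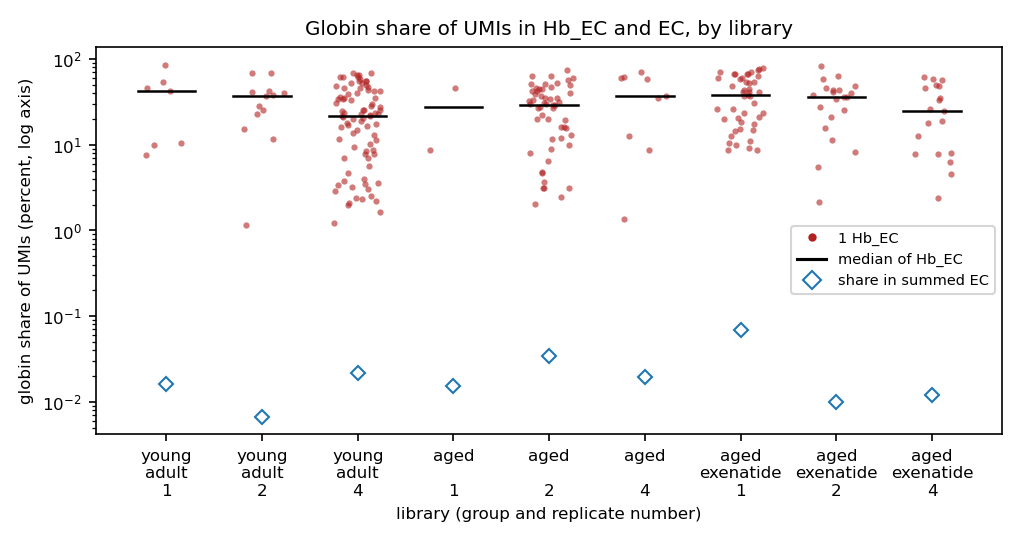
Globin share of UMIs (percent, log axis) in each Hb_EC (points), with the median (line), and in the summed EC of the same library (open diamonds), for 9 libraries. Every Hb_EC, the lowest at 1.16%, lies above the EC share of its library, which was at most 0.0681%.

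In the UMIs summed per library, the globin share of Hb_EC was 43.1, 36.5 and 27.4% in young adult libraries 1, 2 and 4. It was 36.2, 31.7 and 41.1% in the aged and 43.8, 35.7 and 36.9% in the exenatide-treated aged libraries of the same numbers. Summed EC of the same libraries had between 0.00670% (young adult 2) and 0.0681% (exenatide-treated aged 1). The ranges of Hb_EC and EC were thus far apart in every library, and young adult library 4 was the lowest for Hb_EC.

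The 4 genes stood in the same order in Hb_EC and in EC, but the alpha to beta ratio tended to be higher in Hb_EC. Of 203258 globin UMIs in Hb_EC, 49.7% were *Hbb-bs*, 24.97% *Hba-a1*, 18.3% *Hba-a2* and 7.005% *Hbb-bt*, an alpha to beta ratio of 0.764. Of 8154 globin UMIs in EC, 54.4% were *Hbb-bs* and 24.3% *Hba-a1*, with a ratio of 0.671. By library the ratio ran from 0.600 to 0.907 in Hb_EC and from 0.504 to 0.966 in EC, and these ranges overlapped. Within libraries, Hb_EC had the higher ratio except in aged library 2 (0.662 against 0.752) and aged library 4 (0.773 against 0.966). In microglia and astrocytes the ratio was 0.586 and 0.636. Hb_EC were above microglia except in young adult library 2 (0.685 against 0.810). They were above astrocytes except in exenatide-treated aged library 1 (0.764 against 0.767). The globin UMIs of EC include those of 30 cells with at least 1% globin. These differences were not tested. Of *Hbb-y*, an embryonic globin gene, 1 UMI was found in all Hb_EC.

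Beside the globins, Hb_EC contained transcripts of genes that act in late red cell formation. Among the genes furthest above EC were, after the 4 globin genes, *Alas2*, *Bpgm*, *Ube2l6*, *Fech*, *Mkrn1*, *Cd24a*, *Rec114* and *Slc25a37*, followed by *Gpr37l1* and *Fam220a*. *Bpgm* encodes the mutase that makes 2,3-bisphosphoglycerate in red cells, *Fech* ferrochelatase, and *Slc25a37* mitoferrin-1, which brings iron into mitochondria. *Ube2l6* and *Mkrn1* encode enzymes of the ubiquitin and ISG15 conjugation pathways. The mean log2 ratio to EC of the same library was 6.61 for *Alas2* and 2.86 for *Bpgm*, on UMIs per 1000000 UMIs (CPM) with 10 added to each side. *Gpr37l1* is a gene of astrocytes and stood at 1.86.

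Because globin fills much of a Hb_EC, all other genes are diluted when scaled to the total. The median log2 ratio to EC over the 3118 genes with at least 50 CPM in EC was -0.92, and it was -0.39 when globin UMIs were left out of the totals. Levels below are therefore UMIs per 1000000 non-globin UMIs (non-globin CPM) unless stated, as means over the 8 libraries with at least 5 Hb_EC, and should be read against that shift.

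*Alas2* reached 1667 ± 538 (SD, n = 8 libraries) in Hb_EC against 0.164 in EC. In Hb_EC of young adult libraries 1, 2 and 4 it stood at 2097, 1687 and 580, in the aged at 1284, 1671 and 2408, and in the exenatide-treated aged at 1816, 1702 and 1375. EC had 0 UMIs of *Alas2* in 7 libraries, with 2 UMIs in aged library 2 and 3 in exenatide-treated aged library 1. No Hb_EC library came near the EC of any library, and young adult library 4 was again the lowest.

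Only some steps of the heme pathway shared this pattern. Of the 12 heme synthesis genes, *Alas2* and *Fech* were higher than in EC in all 8 libraries, and *Slc25a37* in 7. Over all 17963 genes with a UMI in either cell type, 0.301% were higher in every library on this scale and 7.6% lower. *Fech* had 235 ± 84.3 against 17.2 and *Slc25a37* 157 ± 107 against 6.75. *Alas1*, the housekeeping form of the enzyme, had 192 ± 116 against 206. The intermediate enzymes *Alad* and *Cpox* were higher in 3 and 6 of 8 libraries.

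Of 28 measured genes in a list of erythroid regulators and maturation genes, 9 were higher in all 8 libraries. Of the 3118 genes with at least 50 CPM in EC, 1.06% were. *Bpgm* (481 ± 158 against 30.5), *Mkrn1* (801 ± 396 against 81.5) and *Ube2l6* (684 ± 270 against 61.4) were far above EC. *Prdx2*, a peroxiredoxin abundant in red cells, had 623 ± 275 against 234, and *Bnip3l*, which acts in clearing mitochondria, 753 ± 227 against 477. Scaled to all UMIs, not all of the 9 genes stayed higher in every library. *Prdx2* then had 383 against 234 CPM and was higher in 6 of 8 libraries. *Bnip3l* was level with EC, at 471 against 477 CPM, and higher in 3 of 8. The ferritin light chain gene *Ftl1*, at 3741 ± 527 against 2838, was higher in all 8 libraries on this scale but lower in all 8 when scaled to all UMIs (2354 against 2837 CPM). The early regulators *Klf1* and *Nfe2* and the erythropoietin receptor gene *Epor* had 1 UMI each in all 254 cells.

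Some genes of the red cell membrane were sparse. The band 3 gene *Slc4a1* had 11 UMIs in 7 cells, whereas *Epb41*, which encodes protein 4.1, had 209 ± 168 non-globin CPM against 30.9 and was higher in all 8 libraries.

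The endothelial programme was present in most of these cells at a somewhat lower level than in EC. *Cldn5* had 4634 ± 1738 non-globin CPM in Hb_EC and 6342 in EC, and was lower in all 8 libraries. In libraries 1, 2 and 4 its Hb_EC level was 7810, 4872 and 4131 in young adult, 7274, 6066 and 4626 in aged and 3758, 3891 and 1918 in exenatide-treated aged mice. The lowest value was that of exenatide-treated aged library 4, and the range of Hb_EC overlapped that of EC, 4682 to 9043.

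The 22 endothelial genes summed to 22053 ± 6216 in Hb_EC and 27510 in EC, and the 16 BBB genes to 24145 ± 5802 and 30364. Of the endothelial genes, 6 were lower in all 8 libraries and 0 higher in all. Of the genes with at least 50 CPM in EC, 3.08% were lower in all 8. *Flt1*, a VEGF receptor, had 2468 ± 556 against 3171, and *Bsg*, which encodes basigin and was the most abundant BBB gene, 14400 ± 4228 against 18335. The median log2 ratio was -0.48 for the endothelial and -0.38 for the BBB list, beside a shift of -0.39 for the genes with at least 50 CPM in EC and of -0.20 for the 262 genes with at least 500. *Erg*, an endothelial transcription factor, had 0 UMIs in Hb_EC, and EC held it at 17.9 non-globin CPM.

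Arterial genes stood lower than this, though the shift of -0.39 is not a like measure for sparse genes. The 10 arterial genes had a median log2 ratio of -1.22 and summed to 660 ± 320 against 1153. Among the 10 genes furthest below EC were *Gkn3* (115 ± 124 against 287) and *Mgp* (112 ± 86.6 against 293) of arterial ECs, and the adhesion genes *Vcam1* (31.4 ± 33.2 against 119) and *Icam1* (27.7 ± 38.0 against 100). The others were *Bhlhe40*, *Foxq1*, *Elf2*, *Xaf1*, *Slc39a8* and *Hs3st1*. The 9 venous genes had a median of -0.66 and summed to 1155 ± 338 against 1474, much of it from *Car4* (669 ± 380 against 836) and *Tfrc* (159 ± 200 against 120), genes that are not limited to veins. Many of these genes had few UMIs, 37 for *Gkn3* and 16 for *Vcam1*, so their levels carry a wide counting error. In small libraries such genes could have 0 UMIs in Hb_EC, which lowers a mean log2 ratio more than a summed level. Some arterial genes, such as *Vegfc* (30.6 in EC), also lay below the 50 CPM required for that shift.

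**Figure D2:**
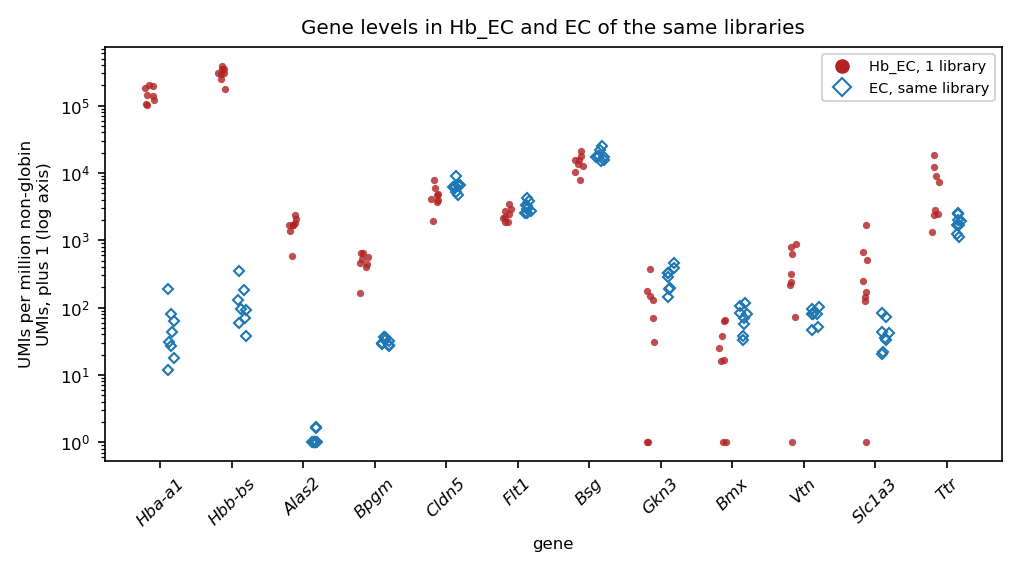
Non-globin CPM plus 1 (log axis) of 12 genes in Hb_EC (filled points) and EC (open diamonds), 1 point for each of the 8 libraries with at least 5 Hb_EC. The globin genes, *Alas2* and *Bpgm* do not overlap with EC, whereas *Cldn5*, *Flt1* and *Bsg* do.

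Both programmes often occurred in the same cell. Of the 254 Hb_EC, 121 had at least 1 UMI of both *Alas2* and *Cldn5*, 90 had *Cldn5* without *Alas2*, 21 had *Alas2* without *Cldn5* and 22 had neither. After every cell was thinned to 500 UMIs, which left out 0 cells, *Cldn5* was found in 61.4% of Hb_EC (exact binomial 95% interval 55.1 to 67.4%) and 91.7% of EC. Microglia and astrocytes, which should lack it, reached 5.62 and 6.48%. *Alas2* was found in 28.3% of Hb_EC (22.9 to 34.3%), against 0.00490% of EC, 0.0308% of microglia and 0.00601% of astrocytes.

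The share with *Cldn5* thus lay between that of EC and those of microglia and astrocytes, and the share with *Alas2* above all 3. Without thinning they were 83.1% for *Cldn5* and 55.9% for *Alas2* at a median depth of 2088 UMIs, with *Cldn5* in 98.6% of EC at 1395, 13.7% of microglia at 1296 and 13.8% of astrocytes at 1145. The intervals cover counting error only. No doublet caller was run here, and the part of droplets that held more than 1 cell was not tested.

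With the cells of all libraries pooled, *Alas2* rose with the globin share, and the endothelial list share had little rank correlation with it. Libraries and kinds of cells are mixed in this relation, which was not examined within libraries. It was detected in 9.43% of the 53 cells with under 10% globin, 40.5% of the 79 cells with 10 to 30%, 78.9% of the 71 with 30 to 50% and 96.1% of the 51 above. *Cldn5* was detected in 90.6, 83.5, 83.1 and 74.5% of the same cells. The median endothelial list share was 2.01, 2.33, 2.32 and 1.68% in these ranges, lowest in the last. Below the 1st percentile of EC for that list lay 15, 15, 14 and 19 of their cells. Across the 254 cells, which share 9 libraries and whose total bounds both shares, Spearman's rho with the globin share was 0.74 for *Alas2* per 10000 non-globin UMIs and -0.06 for the endothelial list share. The median total was 1105, 1756, 2689 and 2653 UMIs in these 4 ranges of the globin share. Without globin it was 1083, 1442, 1569 and 871, so the cells with most globin had the fewest other UMIs in which a gene could be detected.

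The label was then checked cell by cell. The endothelial list took a median of 2.21% of the non-globin UMIs of a Hb_EC and 2.68% of those of an EC. For 191 cells the share lay at or above the 1st percentile of EC, 1.19%, and for 63 cells (24.8%) below it, with 14 cells at 0 and 14 within 20% of that limit. By this measure the label of vascular cells held for most but not all Hb_EC, and the name Hb_EC is kept here for all of them as the annotation gives it.

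**Figure D3:**
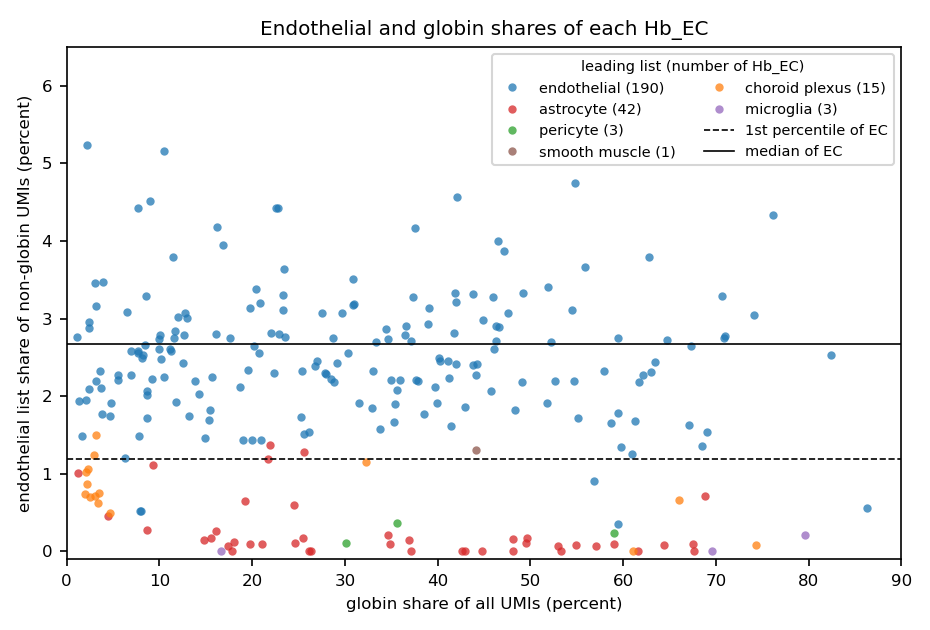
Endothelial list share of non-globin UMIs (percent) against globin share of all UMIs (percent) for 254 Hb_EC, coloured by leading list, with the EC median of 2.68% (line) and the EC 1st percentile of 1.19% (dashed). Most cells led by the astrocyte list (42 in all) lie below the dashed line over a wide range of globin shares, and most of those led by the choroid plexus list (15) lie at the left.

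To see what the other cells contained, the share of each of 6 marker lists in a cell was divided by its median in the annotated type it marks, and the list with the highest quotient was called leading. The endothelial list led in 190 Hb_EC, the astrocyte list in 42, the choroid plexus list in 15, the pericyte and microglia lists in 3 each and the smooth muscle list in 1. A list can lead at a low level, and 185, 37 and 11 Hb_EC reached at least 50% of the median of the own type for the endothelial, astrocyte and choroid plexus lists. Among EC the endothelial list led in 99.9%. Of all cells in the libraries, 26.9% were annotated as microglia and 22.9% as astrocytes. The 2 lists have unlike medians in their own types, 4.30 and 2.03%. How often a list leads was not tested against the number of cells of its type.

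The cells led by astrocyte genes had globin shares like those of the endothelial-led cells, with medians of 30.5 and 28.6%. The glutamate transporter gene *Slc1a3* had 192 UMIs in 62 Hb_EC (24.4%, against 6.38% of EC) and *Aldoc* 245 UMIs in 69 (27.2%, against 12.7%). Choroid-led cells had a median globin share of 3.196%. *Ttr*, which encodes transthyretin and is the main transcript of choroid plexus epithelium, had 4162 UMIs in Hb_EC, 2462 of them in young adult library 4. At least 1 UMI of it was found in 92.9% of Hb_EC and 87.6% of EC, at 7027 ± 6089 and 1824 non-globin CPM, so its presence alone does not mark a cell.

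**Figure D4:**
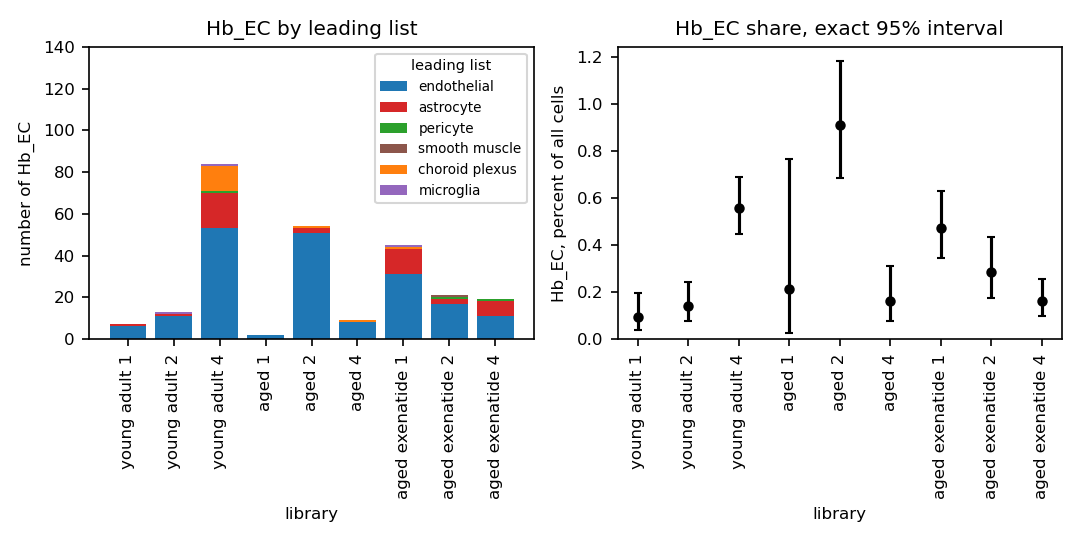
Left, number of Hb_EC per library by leading list (stacked bars). Right, Hb_EC as a percent of all cells of the library with the exact binomial 95% interval. Young adult library 4 holds 84 of the 254 cells and 12 of the 15 choroid-led ones, and the highest share is 0.910% in aged library 2.

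Cells with no marker list at 50% or more of the median of its own type numbered 19, and their median globin share was 53.0%. Of these cells, 13 carried *Alas2*. The 10 proliferation genes had 52 UMIs in 22 Hb_EC, and 3 cells held most of them, with 14, 13 and 5. The globin shares of these 3 cells were 19.8, 61.1 and 67.7%, and their endothelial shares 0.0939, 0 and 0%. Of the 20403 EC, 6 had at least 3 UMIs of these genes.

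Genes of mural cells, the pericytes and smooth muscle cells around vessels, stood higher within the cells of the EC range. The authors had taken out a cluster with markers of both ECs and pericytes before deposit. EC were thus filtered for such cells, and the part of that filter in the values below was not tested. Over 5 libraries, those that had 10 or more of them, the 10 pericyte genes summed to 2265 ± 476 in these Hb_EC and 456 in EC, and 6 of them were higher in all 5 libraries. Of all genes with a UMI in Hb_EC or EC, 1% were higher in all 5 and 14% lower. *Vtn* (vitronectin) had 553 ± 231 against 74.8, *Higd1b* 413 ± 231 against 41.5 and *Pdgfrb*, the receptor by which pericytes are recruited, 137 ± 49.7 against 9.97. The 9 smooth muscle genes summed to 751 ± 248 against 205, with *Myl9* (339 ± 128 against 79.2) and *Tpm2* (69.8 ± 18.0 against 17.6) higher in all 5 libraries and *Cnn1* and *Actg2* at 0 in Hb_EC. Over all Hb_EC and 8 libraries, 0 of the 10 pericyte and 0 of the 9 smooth muscle genes were higher in every library. The pericyte list was then at 72.3 in young adult library 1 and 570 in aged library 4, and between 1674 and 2563 in the others. A minority of cells carried much of the pericyte signal, since 28 of all Hb_EC lay above the 99th percentile of EC for that list, 3 of them below the EC range of the endothelial list. In the cells of the EC range the arterial genes summed to 819 ± 341 against 1299. The endothelial genes summed to 24869 ± 864 against 27295, but these cells were chosen by that same list. That level and its small spread therefore follow in part from the choice. The astrocyte list (921 ± 815 against 511) varied widely between libraries.

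Marker lists of other blood cells were low and varied between libraries. The neutrophil list summed to 17.0 ± 31.5 non-globin CPM against 11.03 in EC, with 6 of 9 genes at 0, and the platelet list to 89.5 ± 84.3 against 58.5, with 3 of 8 at 0. The lymphocyte list had 83.7 ± 74.1 against 30.4 and the list of monocytes and macrophages 151 ± 226 against 49.7, with 679 in exenatide-treated aged library 1. Fibroblast, oligodendrocyte and neuron lists summed to 44.2, 108 and 212 non-globin CPM. The microglia list, at 1946 ± 742 against 1589, was led by *Sparc*, which EC express too (1039 against 1103). Of its other genes the complement genes *C1qa* (180 ± 108 against 85.6) and *C1qb* (182 ± 137 against 97.7) were the most abundant, and *Tmem119*, which marks microglia, had 37.0 ± 48.9 against 24.1.

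The 254 cells fell in 1 cluster of the deposited table, which held 303 cells. The other 49 were annotated as 25 EC, 11 astrocytes, 6 choroid plexus epithelial cells, 5 oligodendrocyte precursor cells, 1 tanycyte and 1 immature neuron, with globin shares from 0.592 to 54.7% and a median of 2.78%. Outside Hb_EC, 23 of 72289 cells had at least 10% globin, among them 5 choroid plexus epithelial cells, 4 oligodendrocyte precursor cells, 3 macrophages and 2 EC. At 1% or more there were 81 such cells, 30 of them EC. High globin was therefore found mainly in Hb_EC but not there alone.

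Hb_EC were deeper than EC when globin was counted. The median number of UMIs per cell was 2228 in Hb_EC and 1390 in EC as a mean over 8 libraries, a difference of 838 ± 422 (SD) that was positive in 8 of 8 libraries. Globin, on which the annotation rests, is part of this total, so the difference is a description with no test. Without globin the difference was -49.6 UMIs, positive in 4 of 8 (two-sided exact sign-flip permutation test, *P* = 0.570). The authors removed the cells with the lowest and highest UMI counts before deposit, which bounds both types, and no Hb_EC had more than 5326 UMIs.

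The number of genes did not differ as clearly. The median was 739 in Hb_EC and 807 in EC, a difference of -67.4 ± 113 genes, with Hb_EC higher in 3 of 8 libraries (exact sign-flip permutation *P* = 0.141). With means over cells in place of medians the difference was -98.2 genes and Hb_EC were lower in 8 of 8 (exact permutation *P* = 0.00781). The mitochondrial share was 3.76% of all UMIs in Hb_EC and 4.94% in EC, higher in Hb_EC in 1 of 8 libraries. Of non-globin UMIs it was 5.84% and 4.95%, higher in 8 of 8, so the direction turned with the denominator. In Hb_EC of the EC range the 13 mitochondrial genes were level with EC over 5 libraries. They summed to 33716 ± 22730 non-globin CPM against 33285, and 0 of them were higher in all 5. No test was made of it, since mitochondrial genes may have been among the genes clustered.

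**Figure D5:**
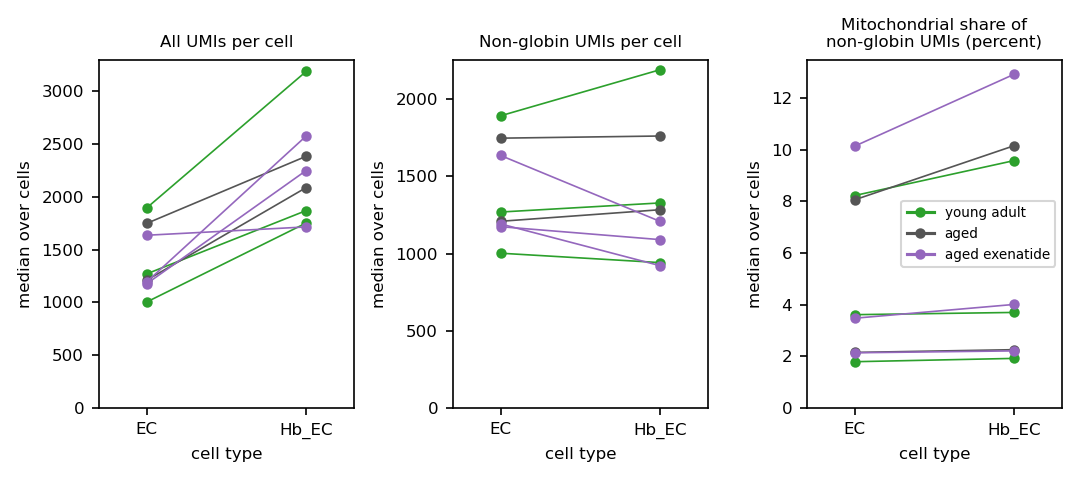
Medians over the cells of a library in EC and Hb_EC, joined for each of the 8 libraries with at least 5 Hb_EC, of all UMIs, non-globin UMIs and the mitochondrial share of non-globin UMIs (percent). All 8 lines rise for all UMIs (mean difference 838), whereas 4 of 8 rise without globin.

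Hb_EC made up 0.0947, 0.142 and 0.559% of the cells of young adult libraries 1, 2 and 4. They made up 0.213, 0.910 and 0.164% of the aged and 0.471, 0.283 and 0.163% of the exenatide-treated aged libraries. Aged library 1, with 938 cells, contributed only 2 Hb_EC. The 3 groups overlapped, and libraries of the same group differed more than the groups did.

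Averaged over the libraries of a group (n = 3), Hb_EC were 0.265 ± 0.256% (SD) of all cells in young adult, 0.429 ± 0.418% in aged and 0.306 ± 0.156% in exenatide-treated aged mice. The aged mean was 0.164 percentage points above the young adult one (two-sided exact permutation test, *P* = 0.5) and the exenatide-treated mean 0.123 points below the aged one (exact permutation *P* = 0.8). With 3 libraries in each group *P* cannot fall below 0.1. Without aged library 2 the differences were -0.0769 and 0.117 points, so both directions rested on that library. Counting only Hb_EC in the EC range, they were 0.211 points (exact permutation *P* = 0.5) and -0.186 points (exact permutation *P* = 0.7).

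For the globin share the differences were within the spread as well. It was 35.7 ± 7.88% (n = 3 libraries) in young adult, 36.4 ± 6.63% (n = 2) in aged and 38.8 ± 4.39% (n = 3) in exenatide-treated aged mice, over libraries with at least 5 Hb_EC. The differences of 0.718 and 2.38 percentage points had exact permutation *P* values of 1 and 0.8, where the smallest possible was 0.2. With medians over cells the differences were -0.673 and -0.0379 points, so neither direction held. Cells below the EC range of the endothelial list numbered 2, 2 and 27 in young adult, 0, 4 and 1 in aged and 14, 3 and 10 in exenatide-treated aged libraries 1, 2 and 4. As a percent of the Hb_EC of the library these were 28.6, 15.4 and 32.1, then 0, 7.41 and 11.1, and then 31.1, 14.3 and 52.6. In each of the 3 numbers, which pair the libraries, the aged share was below the young adult and the exenatide-treated one. The difference was not tested, and 2 of the 3 aged libraries had only 2 and 9 Hb_EC.

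Expression was compared between groups on UMIs summed over the Hb_EC of a library. Only 6 libraries had at least 10 Hb_EC, namely young adult 2 and 4, aged 2, and all 3 exenatide-treated ones, so that a single aged library stood in both comparisons and was assumed to vary like the others. A gene counted as a DEG at an FDR-adjusted *P*-value below 0.05 and an absolute *lnFC*, the natural log of the fold change, above 0.1. Of 1466 genes tested with edgeR's quasi-likelihood test, 1 (0.0682%) was a DEG between aged and young adult mice, with 41 genes at an unadjusted *P* below 0.05. Between exenatide-treated aged and aged mice 0 (0%) were DEGs, with 83 genes at an unadjusted *P* below 0.05, and DESeq2 also called 0. Leaving out exenatide-treated library 2 gave 19 DEGs and leaving out library 1 gave 2, so this count depended on single libraries. In simulated data of this size the procedure recovered 13.9% and 4.95% of genes changed 4-fold in the 2 comparisons, so most changes of that size would have been missed.

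The DEG was *Pcsk1n*, which encodes proSAAS, a neuroendocrine secretory protein. It had 2 and 73 UMIs in young adult libraries 2 and 4, 1 in aged library 2, and 2, 3 and 10 in exenatide-treated aged libraries 1, 2 and 4. The *lnFC* was -3.42 ± 0.77 (SE), with an edgeR adjusted *P* of 0.0183. With the replicate number as a block it was no longer called, and 0 DEGs were left, as with DESeq2 or without young adult library 4. Of the 73 UMIs in that library, 37 lay in endothelial-led, 22 in astrocyte-led and 14 in choroid-led cells. The part of those other cells in the difference was not tested.

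No globin or heme gene was a DEG in either comparison. The *lnFC* of the 4 globin genes ran from -0.13 for *Hba-a1* to 0.06 for *Hbb-bt* with age, and from 0.36 for *Hbb-bs* to 0.45 for *Hba-a2* with exenatide. *Alas2* had 0.46 and 0.05, and *Cldn5* 0.28 and -0.58 (edgeR adjusted *P* = 0.846 for the last). Both comparisons share aged library 2. Of the tested members of the globin (4), heme synthesis (5), endothelial (18) and BBB (16) lists, 0 were called in either direction, and the median *lnFC* of the endothelial list was 0.09 with age and -0.15 with exenatide, beside -0.06 and 0.04 over all genes tested.

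The genes with the smallest *P* after *Pcsk1n* were *Cpe*, *2610001J05Rik*, *Gja1* and *mt-Nd4l* with age (edgeR adjusted *P* = 0.356 each). With exenatide they included *Gm3764*, *Nenf*, *Gja1* and *mt-Nd4l* (edgeR adjusted *P* = 0.0846 each). Some of these had most of their UMIs in cells that astrocyte genes led. *Cpe* had 82 of its 123 UMIs in Hb_EC there and *Gm3764* 51 of 63. *Gja1*, the connexin-43 gene of astrocytes, had 76 of 93, but it belongs to the astrocyte list by which these cells were found. The others lay mostly in cells that endothelial genes led, with 66 of 78 UMIs of *Nenf*, 43 of 55 of *2610001J05Rik* and 136 of 223 of *mt-Nd4l*. The numbers of astrocyte-led cells differed between libraries, with 1 in young adult library 2, 17 in young adult library 4 and 2 in aged library 2. Exenatide-treated libraries 1, 2 and 4 had 12, 2 and 7. The part of these cells in the values above was not tested.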

How the data were processed

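The 9 libraries (10x Chromium 3′ version 2) were processed by the authors with Cell Ranger 3.0.0 on mm10 and Seurat 3.0.1. Their filters took out genes detected in under 3 cells, the cells in the lowest and highest 5% by UMIs or by genes, cells above 20% mitochondrial UMIs, and clusters with markers of several cell types, before deposit. The deposited matrix holds natural log values, ln of 1 plus UMIs scaled to 10000 per cell. The deposited table of cells gives the total UMI count and gene number as counts, the mitochondrial share as a fraction, the cell type, the cluster and the batch. These fractions are given here as percent. The deposited log values were turned back into counts with the total of each cell, and all 58404382 entries were whole within 1e-06.

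The members and gene lists were chosen with earlier results of these data known. For each library the counts of all its cells of a type were added, and sums of under 10 Hb_EC were left out of the tests. edgeR 4.0.16 (R 4.3.3; TMM, filterByExpr, robust quasi-likelihood test, Benjamini-Hochberg) was fitted to the 6 libraries left, with DESeq2 1.42.0 as an alternative. Shares and depth were compared by exact permutation tests (Python 3.11.15, numpy 2.4.6, scipy 1.17.1, pandas 2.3.3). Levels against EC had no test, since the cluster had been made from these genes. The genes named were those of the labels of the cell type, the 6 most abundant members of a list and any at 0, the 15 highest and 10 lowest against EC with the same sign in all 6 libraries with at least 10 Hb_EC, and between groups the DEGs and the 5 smallest *P* values. Others named were chosen after their values were seen.

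Libraries of the same number carry the same batch letter in the deposited table. Over 256 genes, not independent of each other, the deviations of their Hb_EC sums from the group means correlated at 0.374 to 0.622 (9 pairs), and those of different numbers at -0.438 to -0.0257 (18 pairs), so the numbers pair the libraries. The tests were run on simulated data with known changes of 200 genes. Of 70317 distinct barcodes, 2209 (3.14%) occurred in more than 1 library. Among Hb_EC, 18 shared a barcode with a cell of another library, and 0 of those cells were Hb_EC. The libraries held 2550943 to 21920194 UMIs, and the Hb_EC of a library 7323 to 182803. The globin genes *Hbb-b1*, *Hbb-b2*, *Hbb-bh1* and *Hba-x* and the erythroid genes *Gata1*, *Kel*, *Ahsp* and *Trim58* were not analysed here, and some genes that the naming rule covers are not reported here.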

Additional observations from a re-analysis of the deposited data

How the results depend on the processing

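Of the 98 values recomputed under an alternative, 70 kept their direction, their side of the threshold or their size. For the Hb_EC share of all cells, leaving out 1 library gave -0.0769 to 0.311 percentage points for aged minus young adult and -0.256 to 0.117 for exenatide-treated aged minus aged. Both turned without aged library 2. For the globin share, the difference with age was -0.673 points with medians over cells and -3.97 to 5.41 with 1 library left out. With the replicate block it was 4.44, from 2 pairs of libraries. The difference with exenatide was -0.0379 with medians, -0.134 with the replicate block, and -2.31 to 7.07 with 1 library left out. The sign turned without young adult 4 or aged 4 for age, and without exenatide-treated 1 or aged 2 for exenatide.

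Leaving out 1 library gave differences of 760 to 946 for median UMIs, -88.5 to -41.1 for median genes and -1.40 to -0.854 points for the mitochondrial share. Without globin the difference in median UMIs was -49.6, with means over cells that in genes was -98.2, and of non-globin UMIs that in mitochondrial share was 0.897 points, where the construction sets the change of denominator. Thinning to 1000 UMIs gave 77.7% for *Cldn5* and 45.6% for *Alas2*, thinning to 300 gave 16.9% for *Alas2*, and no thinning gave 83.1 and 55.9%.

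The number of DEGs with age was 0 with the replicate block, with DESeq2, with no filter on low counts, with sums of at least 5 or of any number of cells, and, as an alternative added after the data were seen, with Hb_EC in the EC range alone. Leaving out 1 library gave 0 to 2 DEGs with age, 0 without young adult 4 or exenatide-treated 1. With exenatide it gave 0 to 19, the 19 without exenatide-treated 2 and 2 without exenatide-treated 1. The cause was not tested. The replicate block changed no other call. Aged library 2, the only aged one with at least 10 Hb_EC, could not be left out of these fits. Depth was limited by the small number of Hb_EC.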
